A study of Mus musculus with 8 samples.

Results

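Nucleoporins, importins and exportins are the parts of the machinery that carries proteins and RNA between nucleus and cytoplasm. The 45 genes described here are all those listed in these libraries whose symbol begins with Nup, Ipo, Xpo, Kpna, Kpnb or Tnpo and goes on as a numbered family member (Xpot included), together with Ran and Rangap1. They are 45 of 17276 listed genes, namely 21 nucleoporins, 22 transport receptors and the 2 genes of the Ran cycle, and all 45 had enough counts to be tested among 11747 genes. The comparison asks how their transcripts differed between mouse hepatocytes exposed to shear stress, the friction of a moving fluid on the cell surface, and hepatocytes in static culture.

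There were 4 shear stress libraries and 4 static libraries, all from hepatocytes of wild-type male C57BL/6N mice aged 6 to 8 weeks, with no other allele or agent named in the labels. The labels give neither the strength nor the duration of the stress, nor whether separate animals or cultures stand behind the libraries of a group. The p-values therefore reflect no more than the variation among these 8 libraries, part of which may be technical. Values are CPM, read counts relative to the library total after scaling of the libraries (trimmed mean of M values, TMM), and are given in the order of replicates 1 to 4. A change is given on the log2 scale as shear stress over static, ± its standard error, and was called at a Benjamini-Hochberg adjusted p under 0.05 in the edgeR quasi-likelihood test over all tested genes, and ± beside a mean is the SD (n = 4 per group).

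The nuclear pore is a ring of nucleoporins set in the nuclear envelope. Outer and inner rings form its scaffold, nucleoporins with phenylalanine-glycine repeats fill the channel, and filaments and a basket extend to the cytoplasm and the nucleus. Importins bind cargo in the cytoplasm and release it in the nucleus when they meet Ran bound to GTP, whereas exportins bind cargo together with Ran-GTP and let it go in the cytoplasm, where Rangap1 makes Ran hydrolyse its GTP. Importin α proteins are adaptors that recognise the classical nuclear localisation signal and travel with importin β1, the product of Kpnb1.

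Estimated counts summed to between 16225843 and 16732203 in shear stress libraries and between 15067056 and 17935566 in static libraries. The 10 hepatocyte markers summed to between 49653 and 63428 CPM in shear stress libraries and between 73051 and 90169 CPM in static libraries, with 6 of 10 lower. Of markers of other cells, 8 of 10 stellate and fibroblast genes, 8 of 9 listed macrophage genes, 4 of 10 endothelial genes and 4 of 6 listed blood cell genes were under 1 CPM in every library, and the blood cell list summed to between 0.115 and 1.20 CPM in shear stress libraries and between 8.70 and 11.7 CPM in static libraries. Of 12 proliferation genes, 10 were tested and 3 were lower (Mki67, Pcna and Tyms), against 23.7% of all tested genes. Top2a, Aurkb and Rrm2 had log2 fold changes of 1.17, 0.74 and 0.55 and were not called. With the replicate number as a block Aurkb and Rrm2 were higher (adjusted p = 0.0409 and 0.0111). The list summed to 79.3 to 116 CPM in shear stress libraries and 99.9 to 173 CPM in static libraries. Pcna alone had 47.0 to 67.0 CPM and 63.2 to 124.5 CPM. The part of these shifts in the results below was not tested. In such bulk samples fewer cells of a type and less RNA per cell cannot be told apart.

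Of the 45 genes, 13 rose and 13 fell under shear stress and 19 were not called. That is 57.8% called, against 48.6% of all tested genes (24.9% higher and 23.7% lower). With the replicate number as a block, 27 of the 45 (60.0%) were called, against 61.1% of all tested genes, so that the members' share lay at the background in that fit. The groups did not overlap for 25 of the 45, against 45.3% of all tested genes. The median log2 fold change was 0.10, against -0.01 over all tested genes. Of 11 scaffold nucleoporins among the members 7 rose and none fell, both basket members fell, and the importin α family held both directions. The calls split at 13 and 13 with TMM factors, 19 rises and 11 falls with upper quartile factors (31.1% and 16.9% of all tested genes), and 20 rises and 8 falls with library totals (35.4% and 13.1%). These scalings moved the median of all genes by 0.14 and 0.22 on the log2 scale, so a direction of that size holds only relative to the scaling.

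**Figure D1:**
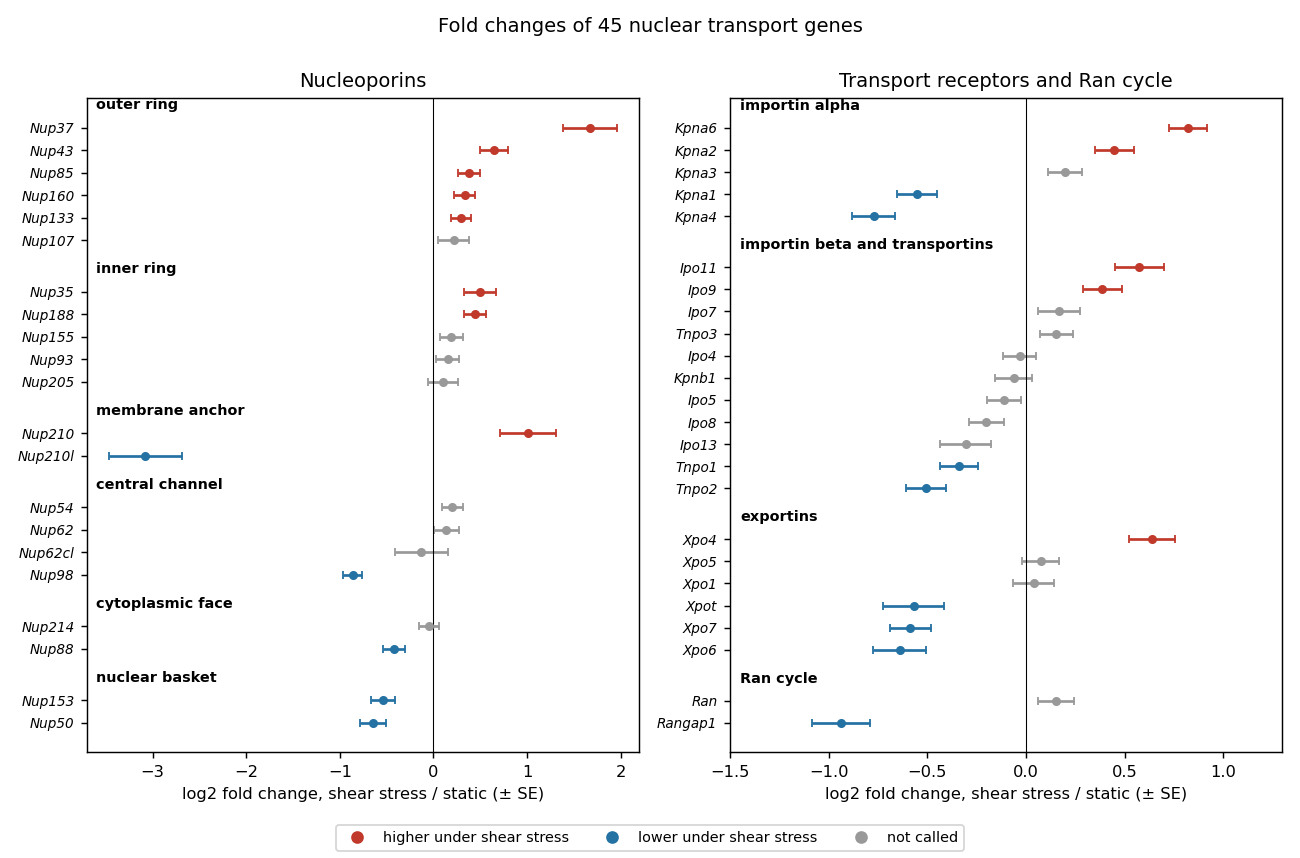
Log2 ratio of shear stress to static (horizontal axis, bars ± SE) for the 45 genes, ordered within each role. Red points were higher, blue points lower and grey points not called. 5 of 6 outer ring genes lie in red on the right, and both basket genes lie in blue on the left.

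Among importin α genes, Kpna6 and Kpna2 rose, Kpna4 and Kpna1 fell, and Kpna3 was not called. Kpna1 and Kpna6 belong to the same subfamily of importin α and so do Kpna3 and Kpna4, while Kpna2 stands in another. Kpna6 (Gene ID 16650; GRCm38 chromosome 4, 129643979 to 129672767) had 56.3, 61.6, 54.2 and 62.8 CPM in shear stress libraries, against 34.0, 30.1, 33.0 and 35.7 CPM in static libraries. Every shear stress library lay above every static library, and the change was 0.82 ± 0.10 (adjusted p = 0.000208). Kpna2 (chromosome 11, 106988629 to 106999525), the importin α gene best known from dividing cells, had 93.2, 112, 106 and 107 CPM under shear stress, against 67.5, 84.4, 75.6 and 78.8 CPM in static culture. The groups again did not overlap (0.45 ± 0.10, adjusted p = 0.00492).

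Kpna4 (chromosome 3, 69072221 to 69127092), whose product carries NF-κB subunits among other cargo, had 79.0, 88.8, 82.9 and 77.6 CPM in shear stress libraries, against 129, 167, 139.8 and 125 CPM in static libraries. All 4 shear stress values lay below the lowest static value, a change of -0.77 ± 0.11 (adjusted p = 0.000488). Kpna1 (chromosome 16, 35983288 to 36037136) had 89.5, 93.0, 93.5 and 91.2 CPM under shear stress, against 119, 156, 141 and 123 CPM in static culture. Its shear stress libraries lay within a narrow band under all static ones (-0.55 ± 0.10, adjusted p = 0.0018), and the call was lost with the deposited FPKM (adjusted p = 0.0594 with a pseudocount of 1) and TPM values (0.119). Kpna3 had 88.2, 94.6, 99.9 and 99.6 CPM in shear stress libraries, against 79.0, 92.6, 79.8 and 82.1 CPM in static libraries. It was higher in 4 of 4 pairs of the same replicate number, but the groups overlapped (0.20 ± 0.09, adjusted p = 0.0895), and it was called without static replicate 2 (0.0386). Kpna3 was also called with upper quartile factors (0.0101) and library totals (0.0076).

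**Figure D2:**
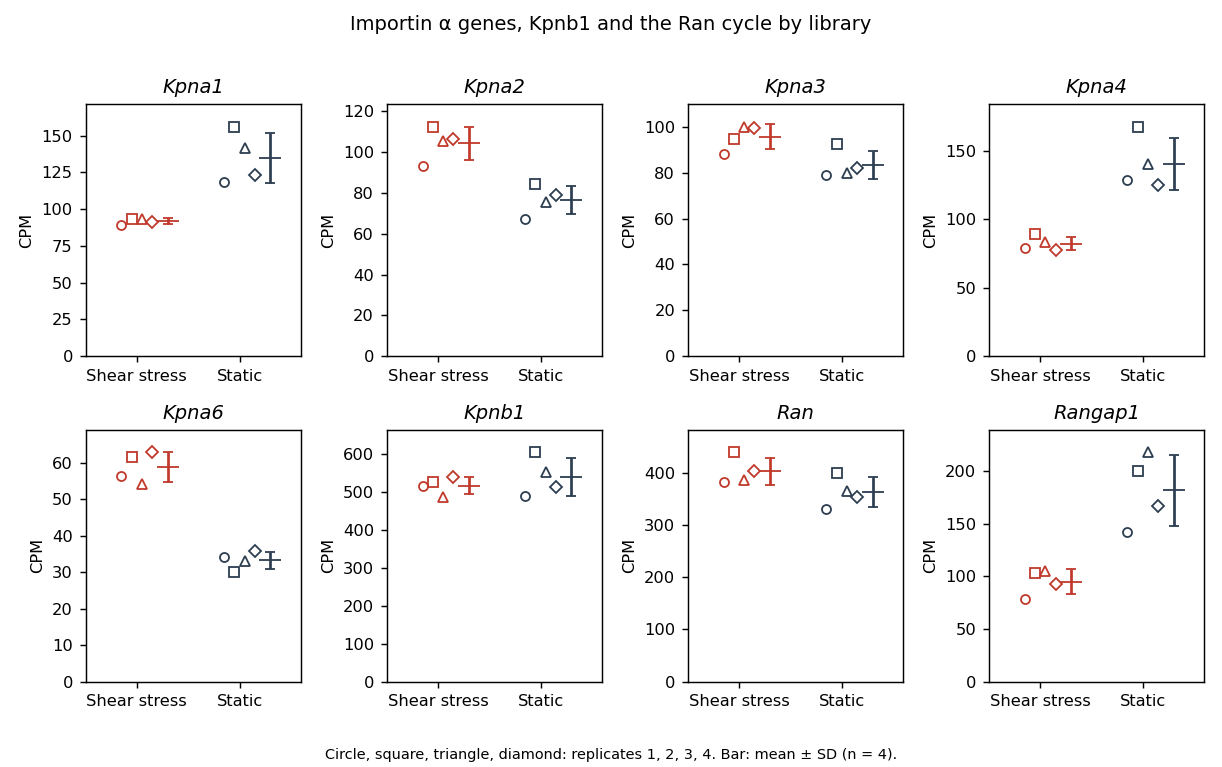
CPM (vertical axis, from 0) in each library for 5 importin α genes, Kpnb1, Ran and Rangap1, with shear stress left and static right. Symbols mark replicates 1 to 4 and bars give mean ± SD. Kpna6 and Kpna2 lie above and Kpna1, Kpna4 and Rangap1 below their static libraries, while the groups overlap for Kpna3, Kpnb1 and Ran.

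Relative to each other, importin α transcripts can be compared per length and free of the library scaling, by each gene's share of the summed TPM of the 5 genes (shares and ratios were chosen after the values had been seen and are descriptions). Kpna2 made up 42.6% ± 1.02 of that sum in shear stress libraries and 30.7% ± 1.53 in static libraries. Kpna4 made up 17.1% ± 0.834 under shear stress and 28.6% ± 1.40 in static culture, and Kpna1 14.8% ± 0.338 and 21.2% ± 1.08. Kpna2 was the leading importin α transcript in all 4 shear stress libraries, whereas in static culture Kpna2 and Kpna4 lay close together and Kpna4 was ahead in replicate 2. Kpna6 contributed 7.78% ± 0.492 in shear stress libraries and 4.36% ± 0.673 in static libraries. The TPM of Kpna6 over that of Kpna1 was between 0.479 and 0.556 in shear stress libraries and between 0.154 and 0.241 in static libraries. The TPM of Kpna2 over that of Kpna4 was between 2.31 and 2.69 under shear stress and between 0.990 and 1.24 in static culture.

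**Figure D3:**
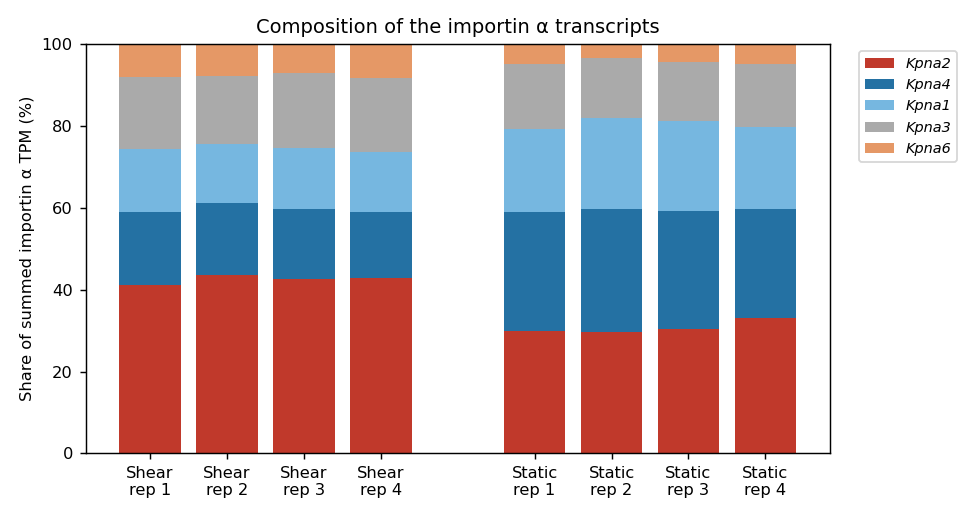
Share of each importin α gene in the summed importin α TPM (vertical axis, percent) in each library, shear stress left and static right. The red Kpna2 share is between 41.2% and 43.6% in the shear stress libraries and between 29.7% and 33.0% in the static libraries, and the blue shares of Kpna4 and Kpna1 are smaller under shear stress.

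Windows of 250 bases upstream of an annotated start site (RefSeq, GRCm38.p6) are shown for a riser and a faller of the importin α family and, further on, of the nucleoporins, so that upstream sequence of genes of opposite direction can be read side by side. Capitals mark matches to GGGCGG and CCAAT on either strand.
Kpna2, rose, minus strand of chr11:106999526-106999775: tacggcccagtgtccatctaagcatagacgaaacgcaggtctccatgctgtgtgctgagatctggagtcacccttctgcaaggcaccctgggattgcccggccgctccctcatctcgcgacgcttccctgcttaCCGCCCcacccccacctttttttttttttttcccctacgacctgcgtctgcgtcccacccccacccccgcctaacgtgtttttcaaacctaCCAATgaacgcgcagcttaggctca
Kpna4, fell, minus strand of chr3:69127093-69127342: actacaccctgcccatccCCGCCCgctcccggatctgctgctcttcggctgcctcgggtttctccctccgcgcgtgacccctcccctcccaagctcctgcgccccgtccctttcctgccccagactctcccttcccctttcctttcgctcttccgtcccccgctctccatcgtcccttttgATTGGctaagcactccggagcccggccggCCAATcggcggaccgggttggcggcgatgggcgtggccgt
Both windows hold 1 GGGCGG match, and CCAAT was found 1 time in Kpna2 and 2 times in Kpna4. Promoter windows were matched for 36 of the 45 genes, 43 windows in all. GGGCGG stood in 5 of 10 windows of genes that rose and in 11 of 13 windows of genes that fell, and in 56.6% of windows of all tested genes (32.7% of all windows in the table). CCAAT stood in 5 of 10 and 6 of 13, against 36.0% for tested genes (33.8% of all windows). CCGGAAG stood in 2 of 10 and 0 of 13, against 13.6% (6.91%), CACGTG in 1 of 10 and 2 of 13, against 8.19% (6.02%), and the palindromic motif known for the factor NRF1 in 2 of 10 and 1 of 13, against 10.4% (4.98%). Both strands were searched for each motif, and a match is a description of the letters only.

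Kpnb1, Ran and most importins of the β family were not called, while the RanGAP gene fell. Kpnb1 (chromosome 11, 97159710 to 97187892) had 515, 526, 487 and 541 CPM under shear stress, against 489, 605, 553 and 513 CPM in static culture. The groups overlapped (-0.06 ± 0.09, adjusted p = 0.606), and the sign turned to 0.16 with library totals. Ran (chromosome 5, 129020156 to 129024322), with the highest TPM of the 45 genes in both groups, had 383, 439, 385 and 403 CPM in shear stress libraries, against 331, 399.6, 364 and 354 CPM in static libraries. It was higher in 4 of 4 replicate pairs, by 0.15 ± 0.09 (adjusted p = 0.195), and was called higher with upper quartile factors (0.0241) or library totals (0.0178). Rangap1 (chromosome 15, 81704248 to 81730798) had 78.8, 103, 105 and 92.8 CPM under shear stress, against 142, 200.4, 218 and 167 CPM in static culture. It fell by 0.94 on the log2 scale (-0.94 ± 0.15, adjusted p = 0.000881) with no overlap, and this call held under all 18 alternatives. The TPM ratio of Ran to Rangap1 was 5.77 ± 0.651 in shear stress libraries and 2.72 ± 0.372 in static libraries. Rangap1 shares 65 exon bases with Zc3h7b on the opposite strand (GENCODE M21), and whether counting used the strand is not given in the sources used here.

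Among the 11 genes of importin β and the transportins, 2 rose (18.2%), 2 fell (18.2%) and 7 were not called. Over all tested genes 24.9% were higher and 23.7% lower. The median log2 fold change of the 11 genes was -0.06. Ipo11 (chromosome 13, 106794439 to 106936958), known as an importer of ubiquitin-conjugating enzymes, had 23.1, 23.1, 23.2 and 25.4 CPM in shear stress libraries, against 14.6, 18.3, 13.4 and 17.3 CPM in static libraries. It rose by 0.58 ± 0.12 (adjusted p = 0.00411), with 3 shear stress libraries nearly level and no overlap. Ipo11 shares 240 exon bases with the gene model Gm28989 on the opposite strand. Ipo9, an importer of histones and actin, rose to 43.4 ± 2.09 CPM under shear stress, against 33.2 ± 3.24 CPM in static culture (0.39 ± 0.10, adjusted p = 0.0103). Tnpo1 (chromosome 13, 98839019 to 98926384), the receptor of hnRNP proteins such as hnRNP A1, had 143, 169.9, 157 and 152 CPM under shear stress, against 188, 222, 193 and 183 CPM in static culture. All shear stress libraries were lower (-0.34 ± 0.10, adjusted p = 0.0155). Its close relative Tnpo2 fell to 64.7 ± 5.30 CPM in shear stress libraries, against 91.9 ± 9.08 CPM in static libraries (-0.51 ± 0.10, adjusted p = 0.0032). The Tnpo1 call was lost without shear stress replicate 1 (0.0617), with upper quartile factors (0.105) and with library totals (0.444), and the Tnpo2 call with library totals (0.0802). With FPKM (pseudocount of 1) and TPM both calls were lost (0.215 and 0.313 for Tnpo1, 0.0996 and 0.16 for Tnpo2). Tnpo2 shares 666 exon bases with A230103J11Rik on the opposite strand.

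The importins that were not called include some of the most abundant. Ipo7, which carries ribosomal proteins, averaged 402 ± 17.0 CPM under shear stress and 358 ± 46.1 CPM in static culture (0.17 ± 0.10, adjusted p = 0.209), and was called without static replicate 2 (0.0448). Ipo7 was also called with upper quartile factors (0.0381) and library totals (0.0259). Ipo5, another carrier of ribosomal proteins, averaged 206 ± 9.92 CPM and 223 ± 18.1 CPM, and Ipo4, a carrier of histones, 178 ± 8.26 CPM and 182 ± 11.5 CPM, each pair of means giving shear stress before static. Tnpo3, the receptor of SR splicing factors, averaged 94.9 ± 5.34 CPM under shear stress and 85.2 ± 3.87 CPM in static culture (adjusted p = 0.143, and 0.0159 with upper quartile factors). It shares 411 exon bases with Irf5 on the opposite strand, and Ipo4 shares 2583 with the gene model Gm49378 on its own strand, so that the split of reads there is uncertain. Ipo8, which binds Argonaute proteins, averaged 41.3 ± 2.44 CPM in shear stress libraries and 47.4 ± 2.57 CPM in static libraries (adjusted p = 0.0895). Ipo13, which carries cargo both ways, averaged 34.4 ± 2.21 CPM in shear stress libraries and 42.5 ± 7.32 CPM in static libraries (-0.31 ± 0.13, adjusted p = 0.0774). Ipo8 and Ipo13 were lower under shear stress in 4 of 4 pairs, and Ipo13 was called with the replicate number as a block (0.0299) or without static replicate 1 (0.041).

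Of 6 exportin genes, 3 fell, 1 rose and 2 were not called, against 23.7% lower and 24.9% higher among all tested genes. The 3 falls had means of at least 50 CPM, where 36.7% of all tested genes fell. The rise was under 50 CPM, where 29.9% rose. Xpo6 (chromosome 7, 126101718 to 126200539), the exporter of actin bound to profilin, had 129.7, 93.0, 128 and 113 CPM in shear stress libraries, against 161, 178, 215 and 168 CPM in static libraries. The highest shear stress library lay below the lowest static one (-0.64 ± 0.13, adjusted p = 0.00376). Xpo7 (chromosome 14, 70662126 to 70770864), an exportin of broad specificity, had 61.9, 67.0, 77.3 and 71.9 CPM under shear stress, against 99.5, 97.7, 118 and 102 CPM in static culture. It fell without overlap (-0.59 ± 0.10, adjusted p = 0.00144). Xpot (chromosome 10, 121587380 to 121626506), the exporter of tRNA, had 155, 139, 201 and 161 CPM under shear stress, against 204, 215, 306 and 249.7 CPM in static culture. Replicate 3 was the highest library of Xpot in both groups, and the groups were only just apart (-0.57 ± 0.15, adjusted p = 0.0128). The Xpot call was lost with library totals (adjusted p = 0.0551), with FPKM (0.0597 with a pseudocount of 1) and with TPM (0.102).

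Xpo4 (chromosome 14, 57577521 to 57668232), which exports the translation factor eIF5A and SMAD3, was the exportin that rose. It had 26.0, 29.3, 31.0 and 29.2 CPM in shear stress libraries, against 19.8, 21.0, 16.4 and 17.0 CPM in static libraries (0.64 ± 0.12, adjusted p = 0.00187). Its groups did not overlap, and the call held under all 18 alternatives. Xpo4 shares 332 exon bases with the gene model Gm49361 on its own strand. Xpo1 (chromosome 11, 23255909 to 23297597), the general exportin for leucine-rich export signals, had 128, 133, 112 and 136 CPM under shear stress, against 109.9, 125, 141 and 120.5 CPM in static culture. The groups overlapped throughout (0.04 ± 0.10, adjusted p = 0.778), and the log2 fold change was -0.02 without static replicate 1. Xpo5, the exporter of microRNA precursors, averaged 64.2 ± 3.69 CPM in shear stress libraries and 61.0 ± 5.05 CPM in static libraries (adjusted p = 0.528, and 0.027 with library totals). Summed over the 6 genes, exportin transcripts came to between 524 and 618 CPM under shear stress and between 649 and 863 CPM in static culture. The groups overlapped in the summed TPM, at 162 to 188 under shear stress and 163 to 221 in static culture, and in the share of all counts.

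Scaffold nucleoporins made up most of the rises among the 21 nucleoporins, of which 8 rose (38.1%), 5 fell (23.8%) and 8 were not called. Over all tested genes 24.9% were higher and 23.7% lower. In the outer ring, the Y-shaped complex that coats the membrane at the pore, 5 of 6 members rose and none fell. Their median log2 fold change was 0.36. Outer ring genes outside the symbol rule, namely Sec13, Seh1l and Ahctf1, were not called (0.06 ± 0.10, -0.22 ± 0.10 and -0.19 ± 0.16). Seh1l was lower with the replicate number as a block (adjusted p = 0.046). Nup98, counted with the channel below, also encodes an outer ring component and fell. Nup37 (chromosome 10, 88146976 to 88178395) had 11.3, 12.8, 9.52 and 11.5 CPM in shear stress libraries, against 3.51, 4.31, 1.52 and 4.68 CPM in static libraries. This was the largest rise of the 45 genes, 3.20-fold (1.68 ± 0.29, adjusted p = 0.00138), and the lowest shear stress library was above the highest static one. Nup43 (chromosome 10, 7667504 to 7678886) had 9.14, 8.82, 8.19 and 9.57 CPM under shear stress, against 5.36, 6.75, 5.76 and 4.92 CPM in static culture. It rose without overlap (0.65 ± 0.15, adjusted p = 0.00637).

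The other outer ring members differed less between the groups. Nup85 rose by 0.38 ± 0.11 to 18.3 ± 1.67 CPM under shear stress, against 14.1 ± 0.880 CPM in static culture (adjusted p = 0.0204). Nup160 rose by 0.33 ± 0.11 to 24.2 ± 1.93 CPM, against 19.2 ± 1.95 CPM (adjusted p = 0.0355), and was the called member whose groups overlapped. Nup133 rose by 0.29 ± 0.11 to 19.8 ± 1.27 CPM, against 16.2 ± 1.18 CPM (adjusted p = 0.0435). Its exons share 461 and 268 bases with the gene models Gm29773 and Gm45890 on the opposite strand. Nup107 averaged 15.1 ± 2.13 CPM in shear stress libraries and 13.0 ± 2.43 CPM in static libraries (0.22 ± 0.17, adjusted p = 0.304). All 6 outer ring members were higher under shear stress in 4 of 4 replicate pairs, as were Kpna3, Ran and Tnpo3, which were not called. The share of all tested genes with such pairs was not computed. Of the 5 rises, 2 were called when static replicate 1 was left out, and likewise for shear stress replicate 2 and for shear stress replicate 4, and 3 when replicate 3 of either group was left out or no filter on low counts was used. Where the calls were lost by leaving out a library, the adjusted p was 0.0582 to 0.0943 for Nup160 (also with static replicate 4 left out), 0.0761 to 0.113 for Nup133 and 0.0579 to 0.0615 for Nup85.

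**Figure D4:**
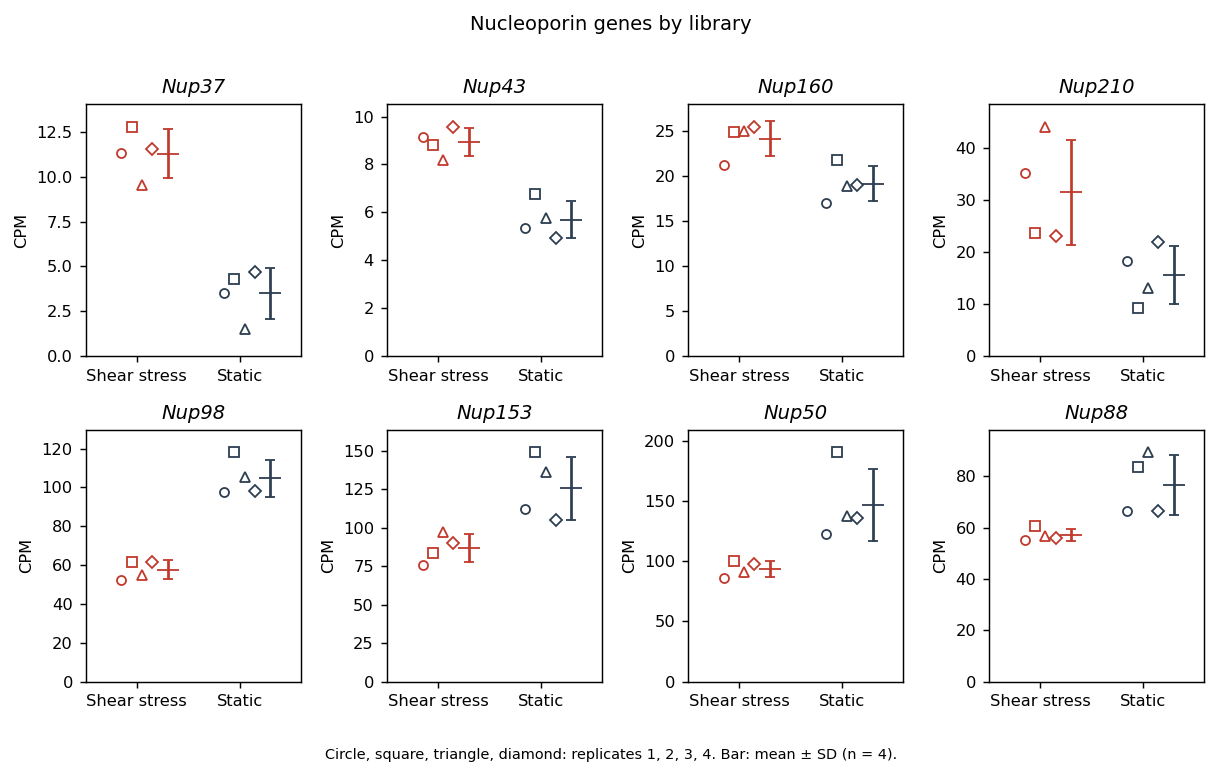
CPM (vertical axis, from 0) in each library for 8 nucleoporin genes, shear stress left and static right, with replicates 1 to 4 as symbols and mean ± SD as bars. Nup37, Nup43 and Nup210 lie above their static libraries, the groups of Nup160 overlap, and Nup98, Nup153, Nup50 and Nup88 lie below.

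In the inner ring, which joins the outer rings to the channel, 2 of 5 genes rose (40.0%) and none fell, with a median of 0.19. Over all tested genes 24.9% were higher and 23.7% lower, and 29.9% and 18.1% of those with a mean under 50 CPM. Nup188 rose to 34.2 ± 2.31 CPM under shear stress, against 25.2 ± 3.19 CPM in static culture (0.44 ± 0.12, adjusted p = 0.0111), and shares 284 exon bases with the gene model Gm28038 on its own strand. Nup35 (chromosome 2, 80638812 to 80660071), which also contacts the membrane, had 6.65, 7.83, 8.66 and 8.49 CPM in shear stress libraries, against 4.56, 6.23, 6.37 and 5.28 CPM in static libraries. The groups were just apart (0.50 ± 0.17, adjusted p = 0.0342), and the call was lost (adjusted p = 0.0669 to 0.0899) when shear stress replicate 2, 3 or 4, static replicate 1 or static replicate 4 was left out, and with no filter on low counts (0.0538). Nup35 shares 131 exon bases on its own strand with Dusp19, which averaged 2.82 CPM under shear stress and 1.37 CPM in static culture. The part of reads from Dusp19 was not tested. Nup155, Nup93 and Nup205 were not called, with log2 fold changes of 0.19 ± 0.12, 0.15 ± 0.13 and 0.10 ± 0.16. The members of both rings were summed, a grouping made after the values had been seen. Their transcripts came to 210.2, 245, 236 and 245 CPM under shear stress, against 174, 217, 181 and 179 CPM in static culture. Static replicate 2 lay above the lowest shear stress library in CPM. In summed TPM the groups did not overlap, at 92.4 to 123 under shear stress and 59.4 to 84.1 in static culture, nor did they as a share of all counts.

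Of the genes for membrane anchors, Nup210 rose and Nup210l fell. Nup210 (chromosome 6, 91013067 to 91118322), a transmembrane nucleoporin whose level is known to vary between cell types, had 35.2, 23.6, 44.1 and 23.1 CPM in shear stress libraries, against 18.4, 9.19, 13.1 and 21.9 CPM in static libraries. It rose 2.01-fold (1.01 ± 0.30, adjusted p = 0.0209) with wide spread in both groups, and the adjusted p was 0.056 without static replicate 3 and 0.0521 without shear stress replicate 3. Nup210l (chromosome 3, 90101007 to 90212151), its paralog known from testis, is below the 5 CPM set for giving values in full and was picked out once its value was known. It had 0.231, 0.783, 0.635 and 0.453 CPM in shear stress libraries, against 5.36, 5.93, 2.50 and 4.20 CPM in static libraries (-3.08 ± 0.39, adjusted p = 0.000317). In the GENCODE M21 models it begins 3.23 kb after the end of Tpm3 on the same strand, and Tpm3 averaged 419 CPM under shear stress and 282 CPM in static culture. The part of reads from that neighbour was not tested.

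Nucleoporins of the basket, the channel and the cytoplasmic face, pooled after the values had been seen, gave 4 falls and no rise among 8 members. Over all tested genes 23.7% were lower, and 36.7% of those with a mean of at least 50 CPM. Of such genes outside the symbol rule, Nupl2 and Rae1 rose (1.96 ± 0.25 and 0.36 ± 0.11, adjusted p = 0.000284 and 0.019). Tpr fell (-0.43 ± 0.08), and Nupl1 and Ranbp2 were not called. Both basket members fell. Nup153 (chromosome 13, 46679902 to 46727849), a repeat nucleoporin that anchors the basket, had 75.7, 83.3, 96.9 and 89.8 CPM under shear stress, against 112, 149, 136 and 105 CPM in static culture. The groups did not overlap (-0.54 ± 0.13, adjusted p = 0.00773). Nup50 (chromosome 15, 84923428 to 84942963), which helps importin α release its cargo, had 85.8, 100.1, 91.2 and 97.4 CPM under shear stress, against 123, 190.4, 138 and 136 CPM in static culture. It fell without overlap (-0.65 ± 0.14, adjusted p = 0.00393), with static replicate 2 the highest library. With library totals the adjusted p was 0.0746 for Nup153 and 0.041 for Nup50, and with FPKM (pseudocount of 1) 0.0968 and 0.054. Of the 4 falls among the 8 members, only that of Nup98 stayed called with FPKM and with TPM. Summed over the 8 members, the groups did not overlap in CPM, at 419 to 469 under shear stress and 535 to 706 in static culture. They overlapped in summed TPM, at 160 to 203 and 164 to 246, and in the share of all counts.

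The upstream windows of the membrane anchor that rose and the basket gene that fell are shown with the same capitals.
Nup210, rose, minus strand of chr6:91116827-91117076: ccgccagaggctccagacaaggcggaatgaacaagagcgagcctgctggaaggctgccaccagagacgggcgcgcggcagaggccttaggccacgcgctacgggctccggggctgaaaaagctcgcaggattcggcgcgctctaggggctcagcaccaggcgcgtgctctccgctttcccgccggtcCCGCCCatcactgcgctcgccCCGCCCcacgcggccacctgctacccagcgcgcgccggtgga
Nup153, fell, minus strand of chr13:46727850-46728099: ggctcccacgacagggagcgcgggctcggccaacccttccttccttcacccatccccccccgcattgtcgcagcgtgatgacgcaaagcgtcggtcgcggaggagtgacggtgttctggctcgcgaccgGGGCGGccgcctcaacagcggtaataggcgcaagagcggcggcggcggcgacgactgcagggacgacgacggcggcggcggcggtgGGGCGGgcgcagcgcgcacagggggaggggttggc
Each of these windows holds 2 GGGCGG matches and no CCAAT match. The Nup210 window lies within the span given for the gene, which reaches further upstream.

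Nup98 (chromosome 7, 102119400 to 102210166) encodes a precursor that is cut into the mobile repeat nucleoporin Nup98 and the outer ring component Nup96. It had 52.4, 61.6, 55.1 and 61.7 CPM in shear stress libraries, against 97.5, 118, 106 and 98.3 CPM in static libraries. All shear stress libraries were far below the static ones (-0.86 ± 0.10, adjusted p = 0.000199), and the call held under all 18 alternatives. Nup88, which holds the export platform at the cytoplasmic face, fell to 57.1 ± 2.44 CPM under shear stress, against 76.5 ± 11.7 CPM in static culture (-0.42 ± 0.12, adjusted p = 0.014). Nup88 was not called with upper quartile factors (0.054), library totals (0.216), FPKM (0.221 with a pseudocount of 1) or TPM (0.337). It shares 48 exon bases with Rabep1 on the opposite strand, which averaged 37.6 CPM under shear stress and 54.8 CPM in static culture. Its partner Nup214 averaged 34.9 ± 3.01 CPM in shear stress libraries and 36.1 ± 3.13 CPM in static libraries (-0.05 ± 0.11, adjusted p = 0.727). Of the channel repeat proteins, Nup62 (chromosome 7, 44816088 to 44831836) had 55.9, 63.5, 56.4 and 60.2 CPM under shear stress, against 43.0, 60.7, 63.4 and 47.3 CPM in static culture. The groups overlapped (0.14 ± 0.13, adjusted p = 0.418), and Nup62 shares 82 exon bases with Atf5 on the opposite strand, which averaged 347 CPM under shear stress and 597 CPM in static culture. Nup54 had a log2 fold change of 0.20 ± 0.11 (adjusted p = 0.168, and 0.025 with upper quartile factors), and Nup62cl, a weakly expressed relative of Nup62, one of -0.13 ± 0.28 (adjusted p = 0.728).

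Direction went with abundance. Of the 24 members with a mean of at least 50 CPM over all libraries, 1 rose (Kpna2) and 12 fell, against 13.2% higher and 36.7% lower among all tested genes of that abundance. Of the 21 members under 50 CPM, 12 rose and 1 fell (Nup210l), against 29.9% higher and 18.1% lower among all such genes. The scaffold members were all under 50 CPM, while the basket genes, Nup98, Nup88 and the falling receptors were all above it. The part of abundance in the split between roles was not tested.

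**Figure D5:**
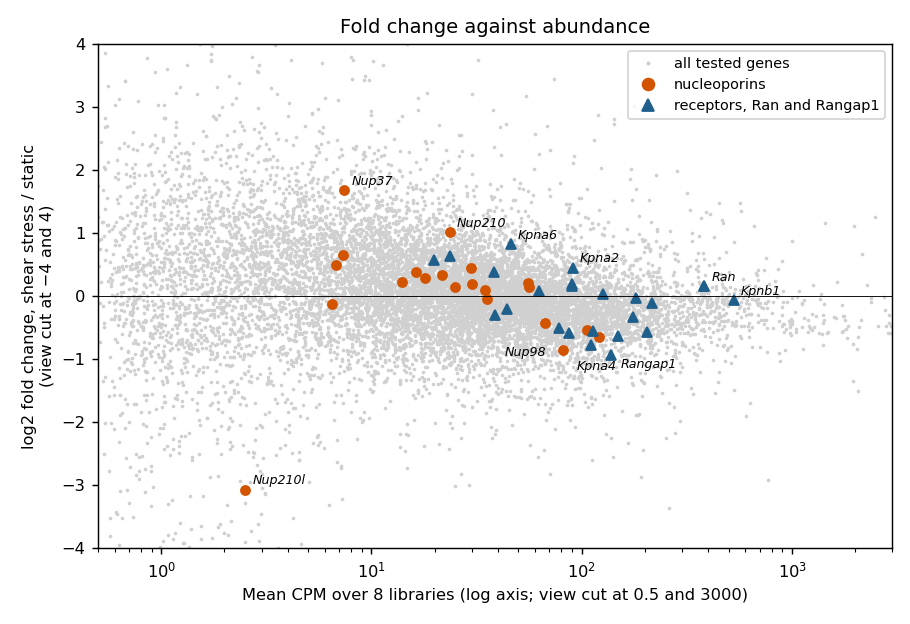
Log2 fold change of shear stress over static (vertical axis) against mean CPM (horizontal axis, log scale) for the members and, in grey, all tested genes within the limits of the view. Members under 50 CPM lie mostly above 0 and those over 50 CPM mostly at or below 0, with Nup210l lowest.

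Per length, Ran, Kpnb1 and Ipo7 had the highest levels in both groups, with 289 ± 35.3, 132 ± 9.63 and 130.1 ± 10.6 TPM in shear stress libraries and 222 ± 31.4, 118 ± 18.4 and 99.2 ± 19.2 TPM in static libraries. Whether Kpnb1 and Ipo7 differed from each other within a group was not tested. With TPM values in limma, Ran and Ipo7 were called higher under shear stress (adjusted p = 0.0321 and 0.0328), and Kpnb1 was not called (0.27). Kpna2 stood in place 4 among the 45 genes under shear stress and in place 8 in static culture, and Rangap1 in place 7 and place 4. Nup37 stood in place 24 under shear stress, with 16.4 ± 2.47 TPM, and in place 39 in static culture, with 4.41 ± 1.91 TPM. Nup210l was lowest in both groups.

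Other genes of nuclear transport, a list of 38 that the symbol rule does not take in, were read beside the members. Of these, 37 were listed and 36 tested, and 7 rose (19.4%), 6 fell (16.7%) and 23 were not called. That is 36.1% called, below the 48.6% of all tested genes. The median log2 fold change was -0.08. With the replicate number as a block, 9 of the 36 rose and 9 fell, against 30.1% higher and 31% lower over all tested genes. Nupl2, the gene of a repeat nucleoporin of the cytoplasmic face, rose 3.90-fold to 10.4 ± 0.262 CPM under shear stress, against 2.65 ± 0.988 CPM in static culture (adjusted p = 0.000284). Snupn, the import adaptor of spliceosomal snRNPs, rose 3.13-fold to 8.43 ± 0.691 CPM, against 2.68 ± 0.693 CPM (adjusted p = 0.000254). Alyref and Thoc1, which prepare messenger RNA for export, rose by 0.57 ± 0.13 and 0.62 ± 0.14.

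Nxf1, the main messenger RNA export receptor, fell to 55.1 ± 5.48 CPM under shear stress, against a mean of 115 CPM in static culture (-1.06 ± 0.11, adjusted p = 0.000127). Nxt2, a cofactor related to its partner Nxt1, fell by 0.79 on the log2 scale and Gle1, which acts in the last step of that export, by 0.54. Tpr, the filament protein of the nuclear basket, fell to 215 ± 8.04 CPM under shear stress, against 289 ± 19.3 CPM in static culture (-0.43 ± 0.08, adjusted p = 0.00244). In the Ran cycle, the cofactor gene Ranbp1 rose by 0.35 ± 0.11 (adjusted p = 0.0201). Rcc1, the nucleotide exchange factor of Ran, was not called, at 0.22 ± 0.21 (adjusted p = 0.413). Cse1l, which returns importin α to the cytoplasm, was not called either, at -0.10 ± 0.12 (adjusted p = 0.546).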

How the data were processed

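Messenger RNA was measured in 4 shear stress and 4 static libraries, grouped by their titles. Tools named in the submitters' processing notes are RSEM, Bowtie2 and HISAT, with GRCm38 (mm10) as build. Their versions, the annotation and the strand setting were not given in the sources used here. The deposited read counts are expected counts, of which 9.31% to 10.7% per library were not whole, and were rounded. TPM and FPKM columns are also the authors' own, as deposited. TPM entered the shares, ratios and levels, and TPM and FPKM (log2 of value plus 1 or 0.1, limma 3.58.1) the alternatives.

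The test was edgeR 4.0.16 (R 4.3.3): filterByExpr, TMM, glmQLFit and glmQLFTest, robust, with Benjamini-Hochberg adjustment over 11747 genes. Alternatives used DESeq2 1.42.0, other scalings and filters, the replicate block and each library left out. The procedure was tested on simulated data. Same-numbered libraries correlated, after removal of group means, at 0.679, 0.642, 0.56 and 0.467 over 8446 genes. Pairs by number are given on that ground, although its meaning is not stated in the labels. The main test left the number out, so its standard errors and p-values ignore any pairing, and the block fit is an alternative. No libraries of a group agreed within counting noise. Values in full are given for the 8 largest called rises and falls with a mean of at least 5 CPM and for 13 fixed genes, and of the wider list for up to 4 called each way and 5 fixed genes. Members, lists and motifs were chosen with earlier results of these data known. Protein features were not analysed here. Coordinates come from RefSeq GRCm38.p6.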

Additional observations from a re-analysis of the deposited data

Results flagged for a closer look

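Of 90 groups of 4 libraries (45 genes in both conditions), 4 held a library whose gap to the nearest other exceeded Dixon's 95% critical value, and chance flags about 1 group in 20. Ipo11 was at 25.4 CPM in shear stress replicate 4, against 23.1 to 23.2 CPM in the other 3. Ipo4 was at 190.5 CPM in shear stress replicate 2, against 173 to 175 CPM. Nup160 was at 21.3 CPM in shear stress replicate 1, against 24.9 to 25.5 CPM, and this is the library that overlapped the static group. Nup214 was at 31.4 CPM in static replicate 3, against 37.2 to 38.0 CPM.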

How the results depend on the processing

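Over 18 alternatives the 45 genes gave 807 log2 fold changes, of which 683 kept their direction and their side of the threshold, 53 lost a call, 37 gained one and 34 changed sign. No called member changed sign, and 14 of 26 were called under every alternative that tested them (8 rises, 6 falls). Leaving out 1 library gave 9 to 15 rises and 12 to 14 falls of members, medians of 0.03 to 0.18, 6 to 9 rises and 5 to 7 falls in the wider list, and 2417 to 2815 rises and 2176 to 2629 falls over all genes. Counts moved most with library totals and with FPKM or TPM, which change the unit and the test (limma) along with the scaling and, for FPKM, the filter. Rises and falls of members numbered 20 and 8 with library totals, 20 and 5 with FPKM at either pseudocount, and 18 and 6 with TPM, and the members' median was 0.32, 0.31 (FPKM + 1), 0.34 (FPKM + 0.1) and 0.29. In the wider list rises numbered 11 with library totals, and falls 3 with library totals, 2 and 3 with FPKM (pseudocounts 1 and 0.1) and 2 with TPM. Falls over all genes numbered 1539, 1312, 1306 and 1353 and rises 4157, 3657, 3645 and 4040, with 10286 genes tested for FPKM and 11747 for the others. In the same order, rises made up 71.4%, 80.0%, 80.0% and 75.0% of the members' calls and 73.0%, 73.6%, 73.6% and 74.9% of the calls over all genes. With the replicate number as a block, 13 members rose and 14 fell, Ipo13 being added, and the block changed no other call among the members. Over all tested genes the block gave 3531 rises (30.1%) and 3645 falls (31%), and in the wider list 9 and 9.

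Signs changed for 7 members that were not called. With upper quartile factors the log2 fold change was 0.11 for Ipo4, 0.025 for Ipo5, 0.077 for Kpnb1, 0.087 for Nup214 and 0.0085 for Nup62cl. With library totals the log2 fold change was 0.19 for Ipo4, 0.11 for Ipo5, 0.024 for Ipo8, 0.16 for Kpnb1, 0.18 for Nup214 and 0.094 for Nup62cl. With the stricter filter the log2 fold change was 0.0091 for Ipo4. With FPKM + 1 the log2 fold change was 0.19 for Ipo4, 0.11 for Ipo5, 0.023 for Ipo8, 0.16 for Kpnb1, 0.078 for Nup214 and 0.0043 for Nup62cl. With FPKM + 0.1 the log2 fold change was 0.19 for Ipo4, 0.11 for Ipo5, 0.026 for Ipo8, 0.16 for Kpnb1 and 0.090 for Nup214. With TPM + 1 the log2 fold change was 0.20 for Ipo4, 0.12 for Ipo5, 0.031 for Ipo8, 0.17 for Kpnb1, 0.088 for Nup214 and 0.0088 for Nup62cl. Leaving out each library in turn gave -0.065 to 0.013 for Ipo4, -0.11 to 0.0010 for Nup214, -0.45 to 0.025 for Nup62cl and -0.015 to 0.11 for Xpo1. The cause was not tested. The stricter filter and the FPKM filter left out Nup210l. Relative to the raw library totals, without TMM scaling, 3 counts correspond to 0.179 to 0.185 CPM in shear stress and 0.167 to 0.199 CPM in static libraries. Nup210l, with 4 counts (0.231 CPM after TMM scaling) in 1 shear stress library, is the member nearest to that limit of 3 counts.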
